A study of Danio rerio with 6 samples.

Results

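The receptors for Netrin and Slit were examined in fluorescent hindbrain cells of zebrafish embryos. The set holds 9 gene names, dcc, unc5a, unc5b, unc5c, unc5da, unc5db, robo1, robo2 and robo3. They were matched by symbol to the gene identifiers of the 6 count tables, with unc5b as ENSDARG00000033327. The name unc5c stands for a pair of genes, called unc5ca and unc5cb in RefSeq, and both were kept. This gave 10 genes of the 32520 listed. All 10 passed the filter on low counts, with 27 to 11521 counted fragments per gene and library.

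Netrins are secreted proteins made, among other places, by the floor plate at the ventral midline. Dcc is the receptor through which Netrin attracts growth cones, and Unc5 proteins convert that response to repulsion, alone or together with Dcc. Slits are midline proteins that repel axons through Robo receptors. In rodents and chick, Netrin and Slit both repel those cranial motor axons that leave the hindbrain away from the floor plate.

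All embryos carried the Tg(isl1:Kaede) transgene, which labels cranial motor neurons with the fluorescent protein Kaede, and all were kept in 0.2 mM PTU, an inhibitor of pigment formation. One group was given 50 nM retinoic acid (RA), a derivative of vitamin A, beginning at 24 hours post fertilization (hpf). The other was given the solvent DMSO alone. At 38 hpf the posterior hindbrain was dissected and Kaede-positive, DAPI-negative cells were sorted. There were 3 libraries per group, DMSO replicates 1, 4 and 10 and RA replicates 6, 9 and 12, each made from 4500 to 10000 cells. The labels do not say how many embryos went into a library or whether the libraries came from separate clutches, so p-values measure the spread between these libraries.

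The libraries held 15971653 to 23411427 counted fragments. Libraries of the same group differed by more than the counting noise of independent fragments, with a chi-square of 12.6 to 56.2 per degree of freedom. The labelled cell type, vagus motor neurons, was checked against markers of cranial motor neurons. All 9 matched markers were detected, and they summed to 6725 to 9028 CPM in DMSO and to 4946 to 6164 CPM in RA. Here CPM is the count relative to the scaled library total. Markers of neural progenitors and radial glia were present too, with sums of 3131 to 3597 CPM under DMSO and 2565 to 4012 CPM under RA. Epidermis markers summed to 34.91 to 312.6 CPM in DMSO and to 231.8, 674.9 and 28.35 CPM in RA replicates 6, 9 and 12. For muscle markers the sums were 8.226 to 86.07 CPM in DMSO and 198.4, 5.491 and 9.871 CPM in these RA libraries. Cranial sensory neuron markers summed to 130.8 to 158.0 CPM in DMSO and to 145.2, 203.3 and 130.9 CPM in RA. Other cell types were thus also represented, and in bulk RNA fewer cells of a type and less RNA per cell cannot be told apart. RA replicate 9 stood apart in the receptor set. Among the 6 libraries it held the highest level of robo1, robo2 and robo3 and the lowest of unc5a and unc5da.

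Of the 10 receptor genes, unc5b fell in RA, and the other 9 did not pass a threshold of 0.05 (edgeR quasi-likelihood test, p-values adjusted by Benjamini-Hochberg over 17270 tested genes). Over all tested genes 0.799% passed in either direction, and 0.353% passed as lower in RA. With DESeq2, which called 3.89% of all genes, unc5b was again the receptor gene that passed. Fold changes lay below 0 for dcc and for all 6 unc5 genes, above 0 for robo2 and robo3, and near 0 for robo1. In total 8 of 10 genes lay below 0, against 47.4% of all tested genes. The median log2 fold change of the 10 genes was -0.33, beside 0.02 for all tested genes. Groups did not overlap for 1 of the 10 genes, unc5b. Of all tested genes, 15.5% had no overlap in either direction and 7.7% had none with RA the lower.

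**Figure D1:**
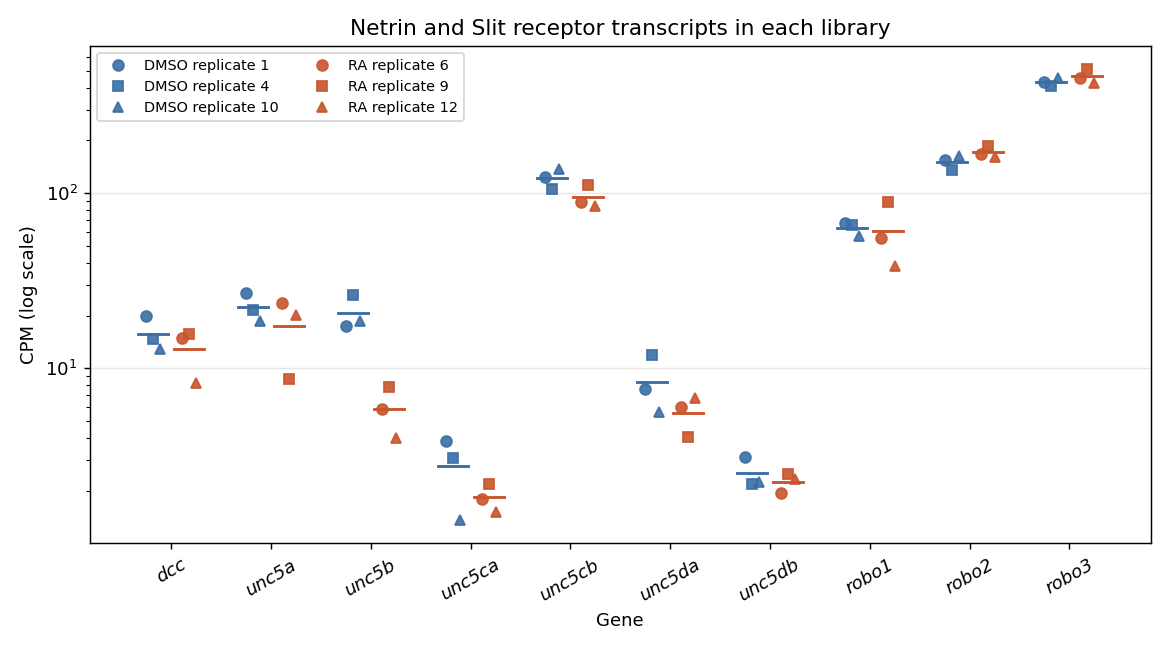
Level of each receptor gene in each library, in CPM on a log scale, with DMSO in blue, RA in orange, and a bar at the group mean. For unc5b the 3 RA libraries lie at 4.00 to 7.81 CPM, below all DMSO libraries at 17.3 to 26.1 CPM, and in each of the other 9 genes the groups overlap.

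The receptors differed widely in their level per length of transcript, measured as TPM from the counts and the exon length of each gene. In DMSO, robo3 stood first at 139.5 ± 4.31 TPM (SD, n = 3), and unc5cb followed at 124.7 ± 14.0 TPM, with ranges that overlapped. Next came robo2 at 79.8 ± 5.61 TPM, apart from its neighbours on both sides. The following 5 genes were robo1, unc5a, dcc, unc5da and unc5b, at mean levels of 19.0, 14.9, 10.1, 6.66 and 6.51 TPM, and each overlapped the next. At the bottom were unc5ca and unc5db, with means of 2.05 and 1.79 TPM, which overlapped each other and lay below unc5b.

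In RA the order of the first 8 genes was the same, and unc5db and unc5ca changed places at the bottom with overlapping ranges. The level of unc5b under RA was 1.87 ± 0.631 TPM, apart from unc5da and overlapping unc5db. In DMSO it had overlapped unc5da and lain above the last pair. A TPM rests on the annotated exon length, which was 2241 bases for unc5cb and 7294 for unc5b, so an incomplete gene model would shift a gene's place.

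**Figure D2:**
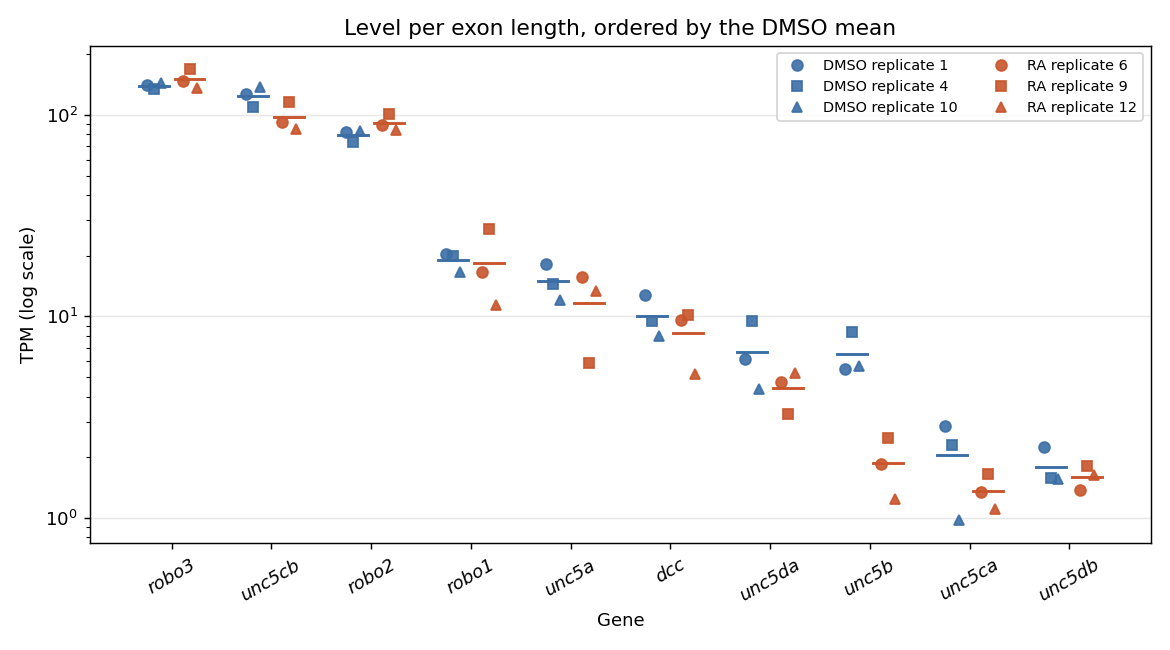
Level per exon length of each receptor gene in each library, in TPM on a log scale, ordered by the DMSO mean, with a bar at each group mean. The genes robo3, unc5cb and robo2 lie at 73.3 to 169.8 TPM in all libraries, and the other 7 receptors reach at most 27.1 TPM.

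Within each family 1 or 2 genes held most of the signal. Of the summed unc5 TPM, unc5cb held 79.5% ± 4.88 in DMSO and 82.0% ± 5.58 under RA (SD, n = 3). The share of unc5a was 9.54% ± 1.89 in DMSO and 10.1% ± 4.90 under RA. For unc5b it was 3.40%, 5.72% and 3.52% in DMSO replicates 1, 4 and 10, and 1.59%, 1.92% and 1.16% in RA replicates 6, 9 and 12. These shares of unc5b did not overlap between the groups. The summed unc5 level was 156.6 ± 9.34 TPM in DMSO and 118.4 ± 11.7 TPM under RA, of which unc5cb made up 124.7 and 97.5 TPM.

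The composition of the robo family differed little between the groups. The share of robo3 was 58.6% ± 0.706 in DMSO and 58.0% ± 0.805 under RA. For robo2 the shares were 33.4% ± 1.16 and 35.2% ± 1.32, and for robo1 they were 7.99% ± 1.03 and 6.85% ± 2.12, in the same order of groups. All 3 shares overlapped between the groups.

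The gene dcc (ENSDARG00000104282, chromosome 5, 31748 to 201600, minus strand, GRCz11) encodes the attractive Netrin receptor. Its level was 19.8, 14.7 and 12.9 CPM in DMSO replicates 1, 4 and 10, and 14.9, 15.6 and 8.20 CPM in RA replicates 6, 9 and 12. The groups overlapped, and RA replicate 12 was the lowest library. On the log2 scale RA differed from DMSO by -0.29 (SE 0.29, edgeR adjusted p 0.862). The 95% interval, from -0.96 to 0.38, leaves a change of either sign unresolved with these libraries.

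The gene unc5b (chromosome 13, 29127960 to 29227803, plus strand) encodes a repulsive Netrin receptor that also acts in the guidance of blood vessels in mouse and zebrafish. Its counts were 355, 619 and 371 in DMSO replicates 1, 4 and 10 and 94, 175 and 79 in RA replicates 6, 9 and 12. This corresponds to 17.3, 26.1 and 18.6 CPM in DMSO, and to 5.85, 7.81 and 4.00 CPM in RA. Every RA library lay below every DMSO library, and the highest DMSO library was replicate 4. The level fell by 1.81 on the log2 scale (SE 0.30, edgeR adjusted p 0.0422). It was thus 3.51-fold lower in RA, with a 95% interval from 2.18-fold to 5.64-fold. No other annotated gene overlaps the span of unc5b.

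With single libraries left out, the difference in unc5b ran from -2.08 to -1.60 on the log2 scale. The gene passed without RA replicate 9 (edgeR adjusted p 0.024). It missed the threshold without DMSO replicate 1, 4 or 10 (edgeR adjusted p 0.134, 0.183 and 0.149) and without RA replicate 6 or 12 (0.128 and 0.0982). Over all genes the fits on 5 libraries called between 9 and 325, the most without RA replicate 9. With all 6 libraries 138 genes were called. The reason for the lost calls was not tested.

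Markers of several cell types also differed between the groups, and their part in the decrease of unc5b was not tested. Of the 9 cranial motor neuron markers, 4 did not overlap between groups and were lower in RA, isl1a, phox2a, phox2bb and tbx20. The share over all tested genes was 7.7%. Of these 4 markers tbx20 passed with edgeR (adjusted p 0.00482). The other 5, isl2a, tbx2b and the cholinergic genes chata, slc18a3a and slc5a7a, overlapped, with log2 fold changes of -0.20 to 0.11. The summed level of the 9 did not overlap, with a mean 1.45-fold higher in DMSO, and the list's median was -0.20. Of the 9 tested markers of neural progenitors and radial glia, gfap was higher in all RA libraries. It passed, at 1.00 on the log2 scale (SE 0.16, edgeR adjusted p 0.035). That list had 5 genes above 0 and 4 below, with a median of 0.04, and its sums overlapped between groups.

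As for cranial motor neurons, the sum did not overlap for spinal motor neurons, for neural crest and pigment cells, and for the endothelial pair given below. In each of these lists 1 gene carried most of the sum. The 5 spinal motor neuron markers summed to 198.6 to 246.3 CPM in DMSO and to 84.8 to 156.3 CPM in RA. Here lhx4 averaged 212.5 CPM in DMSO against 103.8 in RA, while mnx1 and mnx2a were higher in all RA libraries, at 1.68 and 2.00 on the log2 scale. Their edgeR adjusted p-values were 0.0903 for lhx4, 0.0768 for mnx1 and 0.287 for mnx2a. Of the 5 spinal markers 3 lay above 0 and 2 below, with a median of 0.93. The 5 markers of neural crest and pigment cells summed to 105.4 to 108.0 CPM in DMSO and to 64.4 to 88.2 CPM in RA. This was mostly foxd3, which averaged 76.1 against 42.7 CPM, while sox10 averaged 27.4 against 26.5 CPM and the list's median was -0.05.

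Because unc5b is known from endothelium, markers of that tissue were read beside it. Of 4 such markers 2 had a match, kdrl and cdh5, with sums of 77.7 to 90.5 CPM under DMSO and 7.59 to 21.9 CPM under RA. The groups did not overlap in this sum. This sum was mostly kdrl, a VEGF receptor gene. Its level was 78.3, 90.5 and 77.7 CPM in the DMSO libraries and 17.4, 14.1 and 5.62 CPM in the RA libraries. The level of kdrl fell by 2.73 on the log2 scale and passed (SE 0.37, edgeR adjusted p 0.0197). The gene cdh5, which encodes the endothelial VE-cadherin, was at 0 in DMSO replicates 4 and 10 and in RA replicate 9. Its difference was 2.09 (SE 1.72, edgeR adjusted p 0.817).

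Further endothelial genes were added after these values were seen. Of 8 names 7 matched, and they summed to 32.9 to 34.5 CPM in DMSO and to 31.6 to 68.2 CPM in RA. Most of the sum came from fli1 and cldn5b. In DMSO replicates 1, 4 and 10, fli1 stood at 10.9, 13.8 and 12.2 CPM and cldn5b at 19.4, 15.8 and 20.4 CPM. In RA replicates 6, 9 and 12 they stood at 35.9, 16.7 and 11.4 CPM and at 13.8, 12.1 and 12.8 CPM, so that fli1 overlapped between groups and cldn5b was lower in RA without passing (edgeR adjusted p 0.353). The other 5 genes were low in DMSO, with tie1 at 11, 2 and 1 counts and flt1 at 20, 2 and 0 counts. Among them egfl7 was higher in all RA libraries, by 2.04 on the log2 scale (SE 0.62, edgeR adjusted p 0.244). Of the 7 added genes 5 lay above 0 and 2 below, with a median of 1.01, and none passed with edgeR.

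The gene unc5a (ENSDARG00000099034, chromosome 14, 51164056 to 51619388, minus strand) encodes a further Unc5 receptor. It was measured at 27.0, 21.5 and 18.7 CPM in DMSO replicates 1, 4 and 10, and at 23.5, 8.66 and 20.3 CPM in RA replicates 6, 9 and 12. RA replicate 9 was low, and the other RA libraries lay inside the DMSO range. The difference was -0.36 on the log2 scale (SE 0.35, edgeR adjusted p 0.857), and -0.04 when RA replicate 9 was left out.

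The genes unc5ca (ENSDARG00000099133, chromosome 5, 7279104 to 7477362, plus strand) and unc5cb (ENSDARG00000087341, chromosome 10, 1052591 to 1107558, plus strand) correspond to mammalian Unc5c. That gene is required for the normal layout of the mouse cerebellum. The more abundant unc5cb lay at 123.0, 105.5 and 137.8 CPM in DMSO replicates 1, 4 and 10 and at 89.2, 110.9 and 84.0 CPM in RA replicates 6, 9 and 12. Of the RA libraries, replicate 9 alone reached into the DMSO range. The difference was -0.37 (SE 0.16), with a 95% interval from -0.73 to -0.01. It had an unadjusted p-value of 0.0469 and did not pass after adjustment (0.476, edgeR). Of all tested genes, 10.2% had an unadjusted p-value under 0.05. Exons of unc5cb share 198 bases with bmpr1bb on the opposite strand. With the counting options shown in the file headers, fragments in that stretch count for neither gene. The neighbour bmpr1bb had 45 to 86 counts per library.

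The rarer unc5ca had 79, 73 and 27 counts in DMSO and 29, 49 and 30 in RA, or 3.86, 3.08 and 1.35 CPM against 1.81, 2.19 and 1.52 CPM. Its lowest library was DMSO replicate 10, below all RA libraries. The difference on the log2 scale was -0.59 (SE 0.46, edgeR adjusted p 0.799).

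The genes unc5da (ENSDARG00000092722, chromosome 21, 16273782 to 16632808, minus strand) and unc5db (ENSDARG00000061541, chromosome 5, 27137473 to 27397612, plus strand) correspond to Unc5d, a receptor that in mouse also binds Flrt adhesion proteins. For unc5da the values were 7.67, 11.9 and 5.67 CPM under DMSO and 5.98, 4.06 and 6.73 CPM under RA. DMSO replicate 4 was the highest library, and DMSO replicate 10 lay inside the RA range. RA differed by -0.59 on the log2 scale (SE 0.34, edgeR adjusted p 0.664). For unc5db there were 64, 52 and 45 counts in DMSO and 31, 56 and 46 in RA. Scaled to the library, DMSO replicates 4 and 10 lay inside the RA range. Its difference was -0.16 (SE 0.35, edgeR adjusted p 0.963), and it was 0.01 when DMSO replicate 1 was left out.

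The Robo receptors, with unc5cb, included the most abundant genes of the set. Zebrafish mutants of robo2 (astray) misroute retinal axons, and robo3 is needed in the hindbrain for axons to cross the midline. The genes robo2 (ENSDARG00000014891, chromosome 15, 39096736 to 39228226, plus strand) and robo1 (ENSDARG00000026784, chromosome 15, 39277099 to 39820491, minus strand) lie tail to tail, 48.9 kb apart with no annotated gene between them. The gene robo3 (ENSDARG00000005645, chromosome 10, 31298972 to 31563049, minus strand) lies 14.2 kb from robo4.

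The level of robo3 was 429.1, 410.3 and 454.6 CPM in DMSO replicates 1, 4 and 10 and 451.5, 514.3 and 425.5 CPM in RA replicates 6, 9 and 12. The groups overlapped, and RA replicate 9 was the highest library. The difference was 0.10 on the log2 scale (SE 0.11, edgeR adjusted p 0.883), with a 95% interval from -0.16 to 0.37. Of the 10 genes, robo3 had the narrowest interval.

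For robo2 the values were 153.7, 136.3 and 162.0 CPM under DMSO and 167.6, 186.1 and 161.4 CPM under RA, where DMSO replicate 10 and RA replicate 12 nearly coincided. RA differed by 0.19 on the log2 scale (SE 0.12, edgeR adjusted p 0.713). For robo1 they were 67.3, 66.1 and 57.2 CPM under DMSO and 55.2, 88.8 and 38.5 CPM under RA. The RA libraries enclosed the whole DMSO range. The difference in robo1 was -0.06 (SE 0.28, edgeR adjusted p 0.983). It was -0.44 when RA replicate 9 was left out and 0.18 when RA replicate 12 was. Markers of commissural and other hindbrain interneurons, in which robo3 is best known, were summed over 11 genes. The sums were 351.4 to 578.8 CPM in DMSO and 264.7 to 453.4 CPM in RA, with overlapping groups. Of these 11 genes 10 lay below 0, against 47.4% of all tested genes. Their median was -0.53, and none passed with edgeR.

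Paralogs and partner receptors were then compared within each library as the log2 ratio of their counts, which does not depend on the scaling between libraries. In 21 pairs, the mean ratio in RA was set against that in DMSO with a two-sided exact permutation test over the 20 assignments of libraries. With 3 against 3 libraries the smallest p-value it allows is 0.1, so no pair could pass 0.05. The groups did not overlap in 4 pairs, each at the smallest exact p of 0.1 (0.525 after Benjamini-Hochberg adjustment over the 21 pairs). For any pair, a share of 0.1 of the assignments leaves the groups without overlap. Of these 4 pairs 3 held unc5b, so they reuse the values of that gene and are not separate results.

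The ratio of unc5b to unc5cb was -2.83, -2.01 and -2.89 in DMSO replicates 1, 4 and 10 and -3.92, -3.82 and -4.38 in RA replicates 6, 9 and 12, on the log2 scale. All 3 RA ratios were lower. The difference was -1.47 (SE 0.33), and it ran from -1.62 to -1.19 when single libraries were left out. The ratio of unc5b to unc5ca differed by -1.37 (SE 0.48). The ratio of dcc to unc5b was 0.19, -0.83 and -0.53 in DMSO and 1.34, 1.00 and 1.03 in RA, so dcc outnumbered unc5b in counts in all RA libraries and in 1 DMSO library. That difference was 1.51 (SE 0.32). The fourth pair with unc5b was its ratio with unc5a. There unc5a over unc5b differed by 1.37 (SE 0.73), but RA replicate 9, at 0.15, lay inside the DMSO range of -0.28 to 0.64. With that library left out the difference was 2.04.

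Among the 17 pairs without unc5b, 1 did not overlap, a share not above the 0.1 of assignments that separate any pair. The pair was robo2 over robo3. Its log2 ratio was -1.48, -1.59 and -1.49 in DMSO and -1.43, -1.47 and -1.40 in RA, a difference of 0.09 (SE 0.04). The difference between the Unc5d paralogs unc5da and unc5db was -0.40 (SE 0.47), and that between unc5ca and unc5cb was -0.10 (SE 0.54). For robo1 it was -0.33 (SE 0.32) against robo2 and -0.25 (SE 0.29) against robo3. These 4 pairs overlapped between groups. The ratios of dcc to neo1a and neo1b, which encode the related receptor Neogenin, differed by 0.14 (SE 0.25) and 0.10 (SE 0.41), and that of dcc to robo2 by -0.51 (SE 0.33). With other added counts and with single libraries left out, the sign held in 11 of the 21 pairs, among them all 4 that held unc5b.

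**Figure D3:**
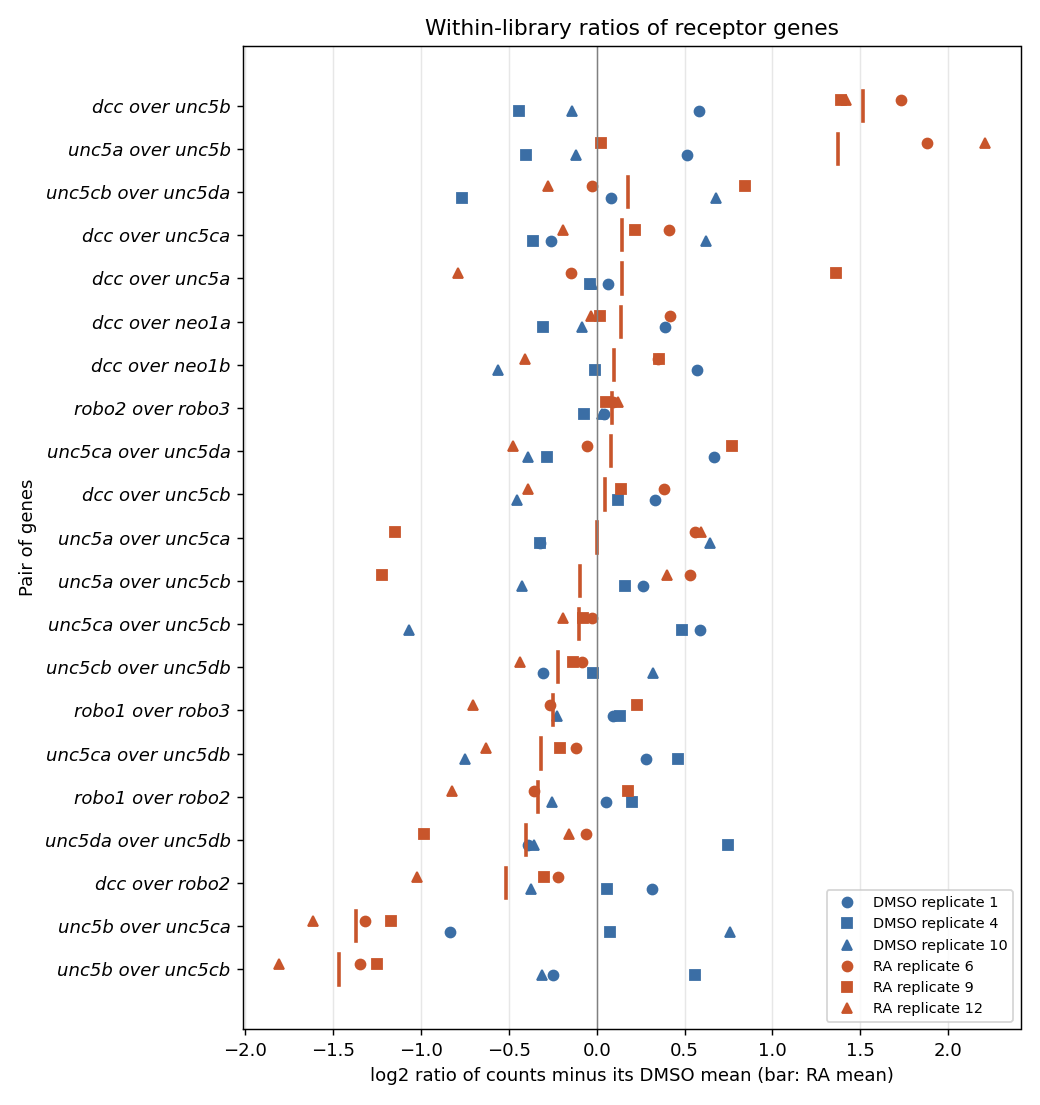
Log2 ratio of the counts of 2 genes within each library, drawn relative to the DMSO mean of that pair, with DMSO in blue, RA in orange and a bar at the RA mean. The pairs that hold unc5b have RA means farthest from 0, from -1.47 to 1.51, and the other 17 lie at -0.51 to 0.18.

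The ligands of these receptors were read from the same fit as 2 lists. Of 7 Netrin and Draxin genes, 6 were tested, and 1 fell. Of all tested genes 0.353% passed as lower in RA. The Draxin gene that fell was draxinb, whose orthologue binds Dcc in mouse. It stood at 194.3, 267.2 and 303.4 CPM under DMSO and 21.6, 27.0 and 11.9 CPM under RA, and fell by 3.66 on the log2 scale (SE 0.32, edgeR adjusted p 0.0053). Its paralog draxina differed by 0.38 (SE 0.14, edgeR adjusted p 0.396).

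The Netrin genes did not pass. The level of ntn1a averaged 102.2 ± 3.35 CPM in DMSO against 88.4 ± 47.6 in RA (edgeR adjusted p 0.939). For ntn1b the averages were 176.6 ± 44.7 and 99.8 ± 55.1 CPM (edgeR adjusted p 0.501). Both genes were highest in RA within replicate 9. Low levels were found for ntn2, with 1.52 CPM in DMSO against 0.473 in RA, and for ntn5, with 1.09 against 0.302, and ntn4 had too few counts to be tested.

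Of 7 Slit and other Robo ligand genes, all tested, 1 fell, where 0.353% of all tested genes passed as lower in RA. The ligand gene that fell was nell2b, an orthologue of mouse Nell2, which encodes a Robo3 ligand. It stood at 302.6, 286.4 and 291.3 CPM under DMSO and 139.1, 165.3 and 170.3 CPM under RA, and fell by 0.89 on the log2 scale (SE 0.12, edgeR adjusted p 0.0187). The call was lost in 5 of 6 fits on 5 libraries, without any one of DMSO replicates 1, 4 and 10 or RA replicates 6 and 12 (edgeR adjusted p 0.0509 to 0.106). Its paralog nell2a differed by 0.60 (SE 0.24, edgeR adjusted p 0.447).

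The 4 slit genes had log2 fold changes from -0.86 to -0.48 and none passed with edgeR, although 3 had an unadjusted p-value under 0.05. The share of all tested genes with such a p-value was 10.2%. With DESeq2, which called 3.89% of all genes in either direction, slit2 and slit3 passed as lower in RA. The most abundant, slit3, averaged 1154 ± 186.1 CPM in DMSO against 644.0 ± 153.8 in RA (edgeR adjusted p 0.119). For slit2 the averages were 109.8 ± 7.65 and 60.6 ± 20.5 CPM (edgeR adjusted p 0.176), for slit1a 112.5 ± 5.44 and 80.6 ± 20.5 CPM, and for slit1b 32.9 ± 10.6 and 21.6 ± 5.06 CPM. The adhesion gene flrt3 differed by 0.06 (SE 0.22). The medians of the Netrin and Slit lists were -1.28 and -0.61, beside 0.02 for all tested genes. The Netrin median depends on the low-level genes ntn2 at -1.73 (SE 0.95) and ntn5 at -1.85 (SE 1.07), while ntn1a differed by -0.21.

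None of the 8 other receptor genes passed with edgeR, where 2 had an unadjusted p-value under 0.05, as had 10.2% of all tested genes. With DESeq2, which called 3.89% of all genes, 1 passed, dscama. Their log2 fold changes ran from -0.44 to 0.64, with a median of -0.35. Neogenin gene neo1a averaged 227.3 ± 33.5 CPM in DMSO against 169.3 ± 51.5 in RA, and neo1b 38.9 ± 7.39 against 28.7 ± 1.63 CPM. The Dscam genes encode adhesion molecules described as Netrin receptors. Their differences were -0.44 (SE 0.12) for dscama, 0.05 (SE 0.25) for dscamb and -0.39 (SE 0.54) for dscaml1. For mcama and mcamb they were -0.31 (SE 0.30) and -0.32 (SE 0.25). The highest value was that of robo4, at 59.2, 209.9 and 52.8 CPM in RA replicates 6, 9 and 12 against 63.4 to 73.1 CPM in DMSO, where RA replicate 9 alone was high.

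**Figure D4:**
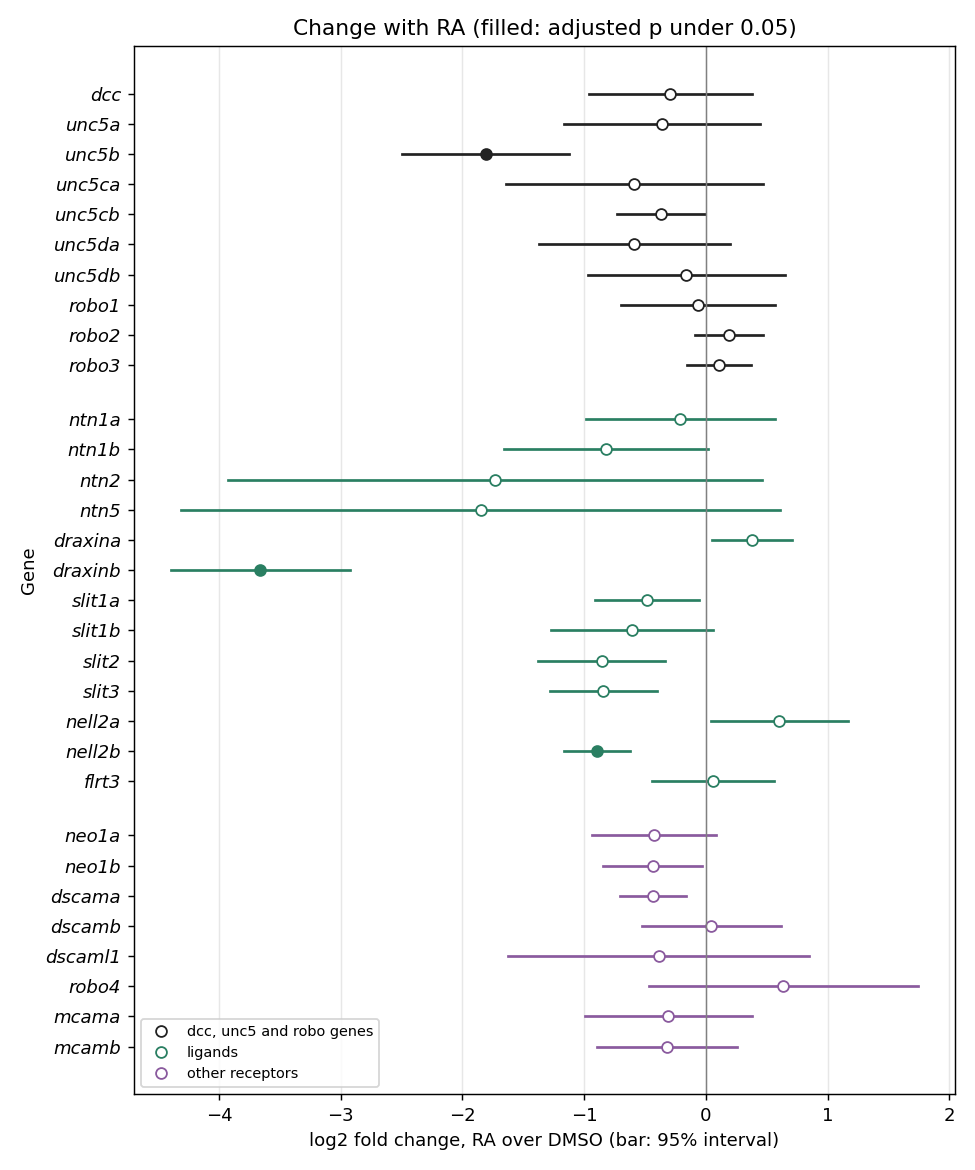
Log2 fold change of RA over DMSO for the receptor genes, the ligand lists and the other receptors, with the 95% interval as a bar and filled points for an edgeR adjusted p-value under 0.05. The filled points are unc5b at -1.81, draxinb at -3.66 and nell2b at -0.89.

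The genes with levels most like those of the receptors were sought for the pair with the smallest p-values, unc5b and unc5cb. Likeness was the root mean square difference of log2 CPM over the 6 libraries, each gene centred on its own mean, among 9157 candidates with a mean of at least 10 CPM. For unc5b the nearest were sulf1 at 0.18, bmp4 at 0.23 and nherf1a at 0.25. They encode a heparan sulfate sulfatase, a BMP ligand and a scaffold protein. Gene sulf1 stood at 63.3, 78.4 and 63.0 CPM under DMSO and 24.5, 35.3 and 14.3 CPM under RA, highest in DMSO replicate 4 and lowest in RA replicate 12 like unc5b. For unc5cb the nearest were hic1l at 0.06, epb41a at 0.07 and rpl39 at 0.07.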

How the data were processed

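Each deposited table gives, for 1 library, raw fragment counts per gene. The authors counted with featureCounts 1.6.0, paired-end and unstranded, against Ensembl release 95 of GRCz11, per the file headers. The submitters' processing notes name STAR 2.5.2a, bcl2fastq 1.8.4 and Subread 1.5.0. Read trimming is not given in the sources used here. Unstranded counting adds antisense fragments to a gene.

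A table of identifiers gave symbols for 29201 of 32520 genes, and 10948 symbols in capitals were replaced by a RefSeq name (GRCz12tu, names only) found once on that chromosome. Tests used edgeR 4.0.16 in R 4.3.3 with filterByExpr, TMM scaling and the two-sided quasi-likelihood test, adjusted by Benjamini-Hochberg over 17270 genes, with a threshold of 0.05. A standard error is the size of the log2 change over the root of its F value, and 95% intervals use the test's degrees of freedom. Paralog ratios had 0.5 counts added to each gene.

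The receptor genes, the lists and the rules for named genes were chosen with earlier results of these data known. Named were all receptor genes, all called list genes, all tested ligands and other receptors, and the 3 genes nearest in pattern. Partner and processing genes named in the closing section were chosen after their values were seen. Of 83 list entries 76 matched and 73 were tested. Marker lists were used for summed levels and medians, and single markers were named after their values were seen. Alternatives were other scalings, filters and dispersions, DESeq2 1.42.0, limma-voom 3.58.1 and leaving out each library. The libraries hold no molecular identifiers, so amplified copies cannot be told from separate molecules. Precision judged by counts alone can therefore be overstated.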

Additional observations from a re-analysis of the deposited data

How the results depend on the processing

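Over the 15 alternatives unc5b kept its direction, at -2.08 to -1.60, and passed 0.05 in 10, with adjusted p-values from 1.38e-06 (DESeq2) to 0.183 (edgeR without DMSO replicate 4). The count of receptor genes that passed was 1 under all 9 other scalings, filters, dispersions and tests, and 0 to 1 when single libraries were left out. Over all genes 138 passed with edgeR. The count was 276 with no filter, 671 with DESeq2 and 394 with limma-voom quality weights, and 9 to 325 when a library was left out. The sign changed for robo1 without RA replicate 6 (0.0022) and without RA replicate 12 (0.179, range -0.4448 to 0.179 with single libraries left out), and for unc5db without DMSO replicate 1 (0.0116, range -0.2556 to 0.0116), and the cause was not tested. The other 8 receptor genes kept their sign in these alternatives. At a mean of 10 CPM, unc5ca, unc5da and unc5db were not tested. The number of paralog pairs without overlap was 4 with 5 counts added. It was 4 to 9 when a library was left out. Removing a library cannot create overlap, so that count could not fall below 4 and does not test the separation. Gene draxinb passed in all 15 alternatives, and nell2b in 10. No paired analysis was made. The groups share no replicate number, and the labels do not say whether any DMSO and RA libraries were prepared together. Counts as low as 27 for unc5ca limit what can be resolved for the rarest receptors.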

Other observations

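Proteins that act inside the cell downstream of these receptors were covered by lists. Of 25 partners of Dcc and Unc5, 21 were tested and none passed with edgeR, where 2 had an unadjusted p-value under 0.05. The share over all tested genes was 10.2%. With DESeq2, which called 3.89% of all genes, 1 passed, trim9, a ubiquitin ligase that binds Dcc in mouse. The log2 fold changes of the list ran from -0.64 for nck2a, an adaptor that links receptors to actin, to 0.61 for trim9, with a median of 0.02. The exchange factor gene dock1 differed by 0.03 (SE 0.17).

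Of 16 partners of Robo, 14 were tested. None passed with edgeR or DESeq2, and 0 had an unadjusted edgeR p-value under 0.05. The GTPase-activating genes srgap1a, srgap1b and srgap3 differed by 0.20 (SE 0.17), -0.40 (SE 0.22) and -0.38 (SE 0.22). Of 20 genes for processing and sorting of the receptors, 17 were tested and none passed with edgeR. The genes sdc2 at 0.77 (SE 0.22) and gpc1b at -0.99 (SE 0.29), which encode heparan sulfate proteoglycans, had an unadjusted p-value under 0.05, and these 2 passed with DESeq2. An unadjusted edgeR p-value under 0.05 was found for 10.2% of all tested genes, and DESeq2 called 3.89%. Sheddase gene adam10a differed by 0.14 (SE 0.16), and ndfip1, which in mouse promotes removal of Robo1, by 0.01 (SE 0.14).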
